A study of Homo sapiens with 6 samples.

Results

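Lysine acetylation enzymes and readers other than P/CAF, p300/CBP and the class IIa deacetylases were examined in Rh30 cells depleted of P/CAF. The set of 39 genes was chosen by gene symbol: acetyltransferases of the MYST family and HAT1, p160 coactivators, zinc-dependent deacetylases of classes I, IIb and IV, sirtuins, bromodomain proteins, ING proteins and YEATS-domain proteins. Of 20046 genes with a named probe on the array, 37 were members, since NCOA3 and BRD1 had no probe named here. Of 11806 genes tested, 32 were members. All 6 samples were of Rh30, an established human cell line from an alveolar rhabdomyosarcoma, a muscle-lineage tumour driven in this line by the fusion gene PAX3-FOXO1. The control group was 3 samples transfected with a scrambled control siRNA, and the other group was 3 samples transfected with an siRNA against P/CAF (siP/CAF), the acetyltransferase encoded by KAT2B. Total RNA was collected at 72 h and hybridised to Illumina bead arrays of 1 colour, 1 array per sample. The study looked for genes of growth, proliferation, cell death and muscle differentiation that respond to the loss of P/CAF. Nothing in the labels says that the samples of a group were separate cultures, so the p-values cover only the spread among these samples, possibly technical. How many siRNA sequences were used is not stated in the labels used here.

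Acetyltransferases move an acetyl group from acetyl-CoA to lysines of histones and other proteins, and deacetylases remove it. The classical HDAC enzymes use zinc, whereas sirtuins consume NAD+. Bromodomains and YEATS domains bind the acetylated lysine, while ING proteins bring acetyltransferase or deacetylase complexes to methylated histone H3 through a PHD finger. In skeletal muscle cells, acetyltransferases serve as coactivators of MYOD1, and HDAC1 and SIRT1 are known to restrain it.

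The median raw signal of an array was 79.1 to 89.7, and 20891 to 21421 of 47323 probes were detected on each. Control array 3 stood somewhat apart: its mean correlation with the other controls was 0.983, and limma gave it the lowest array weight, 0.289. It held the highest of the control values for 50.3% of all tested genes and for 16 of the 32 members, and the lowest for 31.7% and 9. All 8 genes of a skeletal myoblast marker list were detected on every array, including MYOD1, MYOG and DES, with summed raw signals of 38677 to 56732 in the controls against 31952 to 38220 after siP/CAF. Among them MYOG fell by 1.67 on the log2 scale (limma, Benjamini-Hochberg adjusted p = 6.88e-04). Of 5 fibroblast markers 0 were detected on any control array and 4 on at least 1 siP/CAF array, with summed signals of 729 to 839 and 788 to 850. Of 5 endothelial markers 1 was detected on at least 1 control array and 3 on at least 1 siP/CAF array, with summed signals of 837 to 1118 and 793 to 881. PECAM1 was detected on all arrays and fell by 0.59, CDH5 and TEK were each detected on 2 siP/CAF arrays and no control array, and VWF and KDR were detected on none. Epithelial markers summed to 471 to 561 and 505 to 516. CLDN4 was detected on 1 control and 2 siP/CAF arrays, and the others, CDH1, EPCAM, KRT19 and ESRP1, on none. Haematopoietic markers summed to 649 to 733 and 713 to 756. Of 4 with a named probe, 1 was detected on at least 1 control array and 2 on at least 1 siP/CAF array. CD14 was detected on all arrays on its brighter probe and measured 0.34 higher, without passing. PTPRC and CD3E were detected on no array. LYZ was detected on the 3 siP/CAF arrays alone, and only these let its probe be tested. It rose by 0.76 from control values below detection, and its other probe was detected on no array. The part of these markers in the results was not tested, and fewer cells of a type cannot be told apart from less RNA per cell. The siRNA target was lower in every siP/CAF array: KAT2B (probe ILMN_3243142) measured 9.21, 9.37 and 9.90 on the log2 scale in the controls against 6.93, 6.85 and 6.39 after siP/CAF.

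Among the 32 tested members, BRD3 was the 1 called, at a Benjamini-Hochberg adjusted p under 0.05 in limma. It fell by 0.85 on the log2 scale, a 1.81-fold decrease, and kept the call in 3 of the 6 fits that left out 1 array. Over all tested genes, 3.09% were called lower and 2.28% higher. No member was called higher, and none was higher at an unadjusted p under 0.05 in limma. The share called was 3.12% of members, against 5.37% of all tested genes (limma, Benjamini-Hochberg adjusted p under 0.05), so calls were no more frequent here than over the array. At an unadjusted p under 0.05 there were 7 members, all lower: BRD3, HDAC11, SIRT2, NCOA1, KAT6A, ING4 and KAT7. These are 21.9% of members, against 20.6% of all tested genes (11.5% lower and 9.05% higher). Groups did not overlap for 6 members (18.8%), against 27.7% of all genes. Of these, 5 members were lower and 1 was higher after siP/CAF, against 15.1% and 12.6% of all genes. The median log2 difference was -0.09 over members and -0.01 over all tested genes, and 23 of 32 members lay below 0, against 51.7% of all genes. Without control array 3 the members' median was -0.03 and that of all tested genes was 0.01.

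Standard errors of the members' log2 differences ranged from 0.14 to 0.29 with a median of 0.17, which was also the median over all genes. They come from limma, which draws the variances of probes towards a common value. SDs within a group differed more, for instance 0.02 for ING4 in the controls and 0.66 for SIRT6 after siP/CAF. The 95% interval lay within 1 on the log2 scale in either direction for 29 of 32 members and within 0.5 for 13. A 2-fold change in either direction therefore lay outside the interval of 29 members, whereas smaller changes could not be told from none for most of them.

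**Figure D1:**
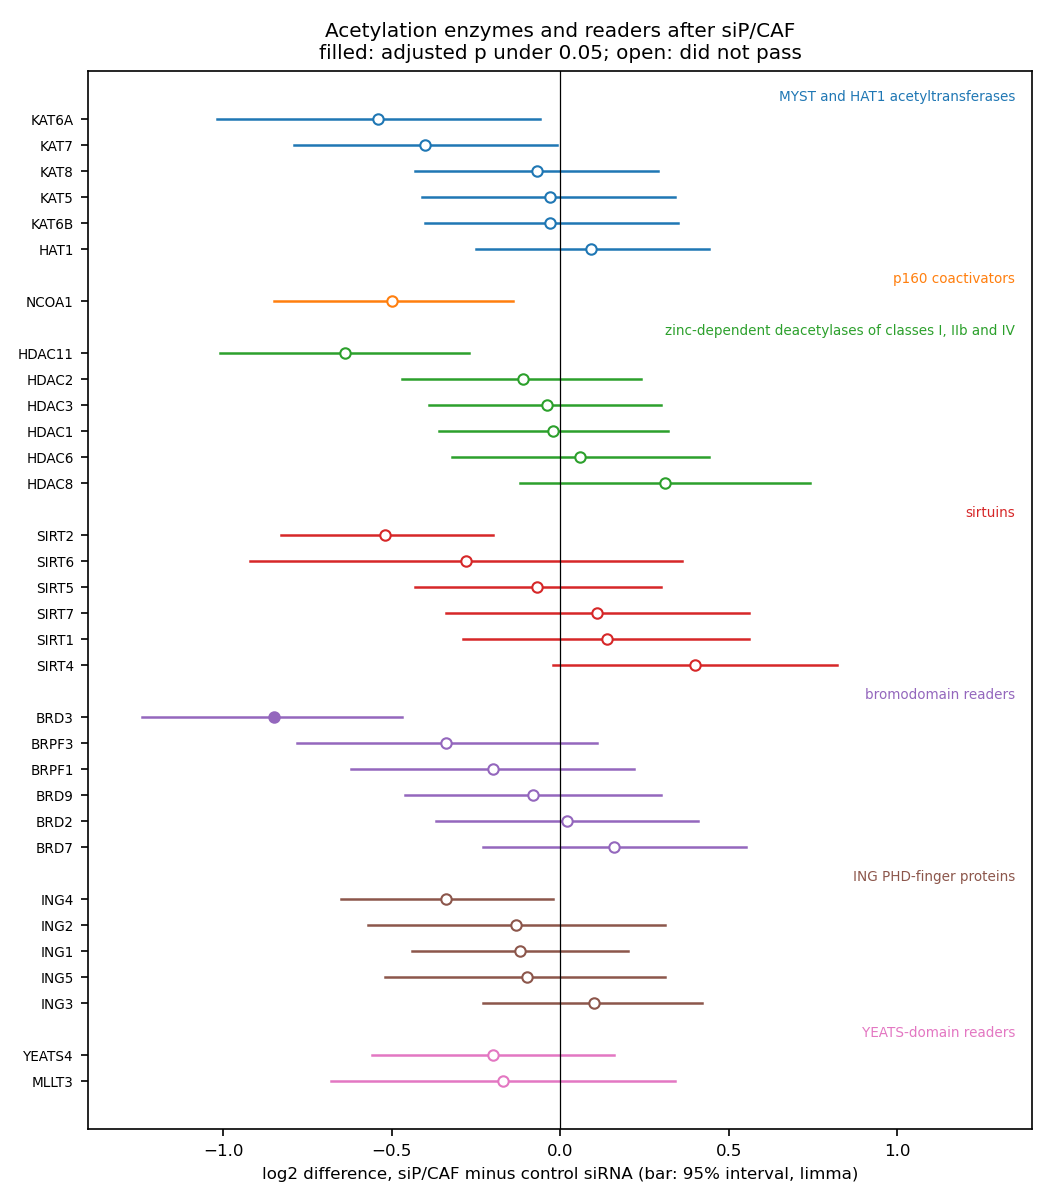
Log2 difference between siP/CAF and control siRNA (horizontal axis) for the 32 tested members, grouped by role. Points are differences over 3 arrays per group, bars are 95% intervals from limma, and a filled point marks an adjusted p under 0.05. BRD3, at -0.85, is the filled point, and the highest difference is SIRT4 at 0.40.

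The 3 members that passed under the reported or at least 1 alternative processing were BRD3, HDAC11 and SIRT2, and the 250 bases before their annotated starts are shown because their values are the lowest of the bromodomain, zinc-dependent deacetylase and sirtuin groups. The sequences are those of RefSeq, assembly GRCh38.p14, 5′ to 3′ on the gene's strand. Capitals mark matches, on either strand, to 4 motifs. The GC box was searched as GGGCGG. The CCAAT box is named by its letters. The E-box, of the kind bound by MYOD1 and MYOG, was searched as CAGCTG. The TATA box was searched as TATAAA. GC boxes overlap each other where a capital run is longer than the motif. BRD3 lies on the minus strand at chr9:134068027-134068276, HDAC11 on the plus strand at chr3:13480056-13480305 and SIRT2 on the minus strand at chr19:38899619-38899868.
BRD3: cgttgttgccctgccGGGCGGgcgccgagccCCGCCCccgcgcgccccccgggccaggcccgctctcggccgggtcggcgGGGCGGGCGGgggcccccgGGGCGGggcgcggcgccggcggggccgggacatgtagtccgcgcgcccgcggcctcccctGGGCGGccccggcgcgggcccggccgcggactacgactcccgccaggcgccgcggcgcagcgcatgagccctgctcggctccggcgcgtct
HDAC11: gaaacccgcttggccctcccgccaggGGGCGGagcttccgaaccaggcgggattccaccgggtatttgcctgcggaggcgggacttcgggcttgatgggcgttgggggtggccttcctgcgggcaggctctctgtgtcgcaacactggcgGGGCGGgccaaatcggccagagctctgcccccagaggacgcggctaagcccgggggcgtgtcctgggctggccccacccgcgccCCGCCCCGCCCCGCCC
SIRT2: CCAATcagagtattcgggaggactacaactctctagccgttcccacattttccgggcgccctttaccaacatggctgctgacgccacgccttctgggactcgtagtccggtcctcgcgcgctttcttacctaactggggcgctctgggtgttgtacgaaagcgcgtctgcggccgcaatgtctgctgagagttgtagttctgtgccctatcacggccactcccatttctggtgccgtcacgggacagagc
The BRD3 window held 6 GC boxes and 48 CpG sites, the HDAC11 window 5 GC boxes and 24 CpG sites, and the SIRT2 window 0 GC boxes, 1 CCAAT box and 20 CpG sites. Neither the E-box nor the TATA box letters occur in these 3 windows. BRD3 and HDAC11 thus share the GC box, and no motif of those searched occurs in all 3 windows. A promoter was available for 28 of the 32 tested members (not for KAT6A, KAT8, SIRT7 and ING3). Counting any annotated start of a gene, the GC box was held by 75.0% of these members and 73.7% of tested genes, the E-box by 17.9% and 17.4%, the CCAAT box by 35.7% and 42.4% and the TATA box by 10.7% and 8.38%. Over all 35116 windows of this length the shares were 42.6%, 14.0%, 32.0% and 10.7%. A match is a run of letters and was not tested for binding.

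Acetyltransferases of the MYST family and HAT1 held no called member among 6, and limma gave 2 of them an unadjusted p under 0.05, both lower. KAT6A (MOZ, probe ILMN_2095840), the catalytic subunit of a complex that acetylates histone H3 at developmental genes, measured 11.24, 10.85 and 11.66 in the controls against 10.75, 10.89 and 10.49 after siP/CAF. The groups overlapped, since siP/CAF array 2 lay above control array 2. The difference was -0.54 with an SE of 0.22 (limma, Benjamini-Hochberg adjusted p = 0.208), and -0.33 without control array 3, which held the highest value. KAT7 (HBO1, probe ILMN_1798187), which acetylates histone H3 and H4 near replication origins, measured 7.36, 7.80 and 7.65 in the controls against 7.17, 7.39 and 7.05 after siP/CAF. Again the groups overlapped by a small margin, and the difference was -0.40 with an SE of 0.17 (limma, Benjamini-Hochberg adjusted p = 0.244). HAT1, which acetylates newly made histone H4 before its deposition, had the highest difference of the group, 0.09. Its values were 12.07, 11.73 and 11.78 in the controls against 11.97, 12.00 and 11.90 after siP/CAF, with siP/CAF arrays inside the range of the controls. KAT5 (TIP60), the catalytic subunit of the NuA4 complex, measured -0.03, KAT6B (MORF), the paralogue of KAT6A, -0.03 and KAT8 (MOF), which acetylates histone H4, -0.07. The intervals of KAT5, KAT6B and KAT8 reached from -0.43 to 0.35 together. The KAT6B probe is dim, with raw signals of 90 to 118, so its difference is limited by closeness to background.

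NCOA1 (SRC-1) is a p160 coactivator of nuclear receptors that recruits p300/CBP. On its brightest probe (ILMN_1669033) it measured 11.56, 11.48 and 11.84 in the controls against 11.21, 11.15 and 11.03 after siP/CAF. Every siP/CAF array lay below every control array, by a gap wider than the spread within the siP/CAF group. The difference was -0.50 with an SE of 0.16, short of the threshold (limma, Benjamini-Hochberg adjusted p = 0.112). Both dimmer probes gave similar values, -0.50 and -0.55, also short of it (limma, Benjamini-Hochberg adjusted p = 0.313 and 0.123). NCOA2 was detected on no array, and NCOA3 is not analysed here.

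Among 6 tested deacetylases of classes I, IIb and IV none passed, and limma gave 1 of them an unadjusted p under 0.05. That was HDAC11 (probe ILMN_1684690), the only class IV deacetylase, which also removes long fatty acyl groups from lysine. It measured 6.70, 6.43 and 6.61 in the controls against 5.86, 6.18 and 5.78 after siP/CAF, and the groups did not overlap. The difference was -0.64 with an SE of 0.17, a 1.56-fold lower value (limma, Benjamini-Hochberg adjusted p = 0.0595). Its probe is dim. Raw signals were 178, 126 and 162 in the controls against 116, 129 and 111 after siP/CAF, so control array 2 and siP/CAF array 2 overlapped before normalization. Without background correction the difference was -0.33.

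The class I enzymes HDAC1, HDAC2 and HDAC3, the catalytic subunits of the SIN3, NuRD, CoREST and NCoR corepressors, measured -0.02, -0.11 and -0.04. Their 95% intervals spanned -0.47 to 0.32, and a dimmer HDAC2 probe measured -0.31 without passing. HDAC6, a cytoplasmic deacetylase of tubulin, measured 0.06. HDAC8, a deacetylase of the cohesin subunit SMC3, had the highest difference of the deacetylases, 0.31 (SE 0.19). Its values were 8.18, 7.48 and 7.92 in the controls against 8.22, 8.08 and 8.20 after siP/CAF, so control array 1 lay within the range of the siP/CAF arrays. HDAC10, a polyamine deacetylase, was detected on no array. Directions therefore differed within this group, with 4 of 6 below 0.

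None of 6 tested sirtuins passed in limma, and 1 had an unadjusted p under 0.05. They showed no common direction, with 3 of 6 below 0 and a median of 0.02. SIRT2 (probe ILMN_1723494), a mainly cytoplasmic deacetylase of tubulin that also acts on histone H4 in mitosis, was the lowest. It measured 9.20, 9.34 and 9.31 in the controls against 8.81, 8.75 and 8.74 after siP/CAF. Both groups were tight, with SDs of 0.07 and 0.04, and they did not overlap. The difference was -0.52 with an SE of 0.14 (limma, Benjamini-Hochberg adjusted p = 0.0711). A dimmer SIRT2 probe measured 8.18, 8.51 and 8.35 in the controls against 7.99, 8.10 and 7.91 after siP/CAF, a difference of -0.34 (limma, Benjamini-Hochberg adjusted p = 0.265). SIRT4, a mitochondrial sirtuin that restrains glutamate dehydrogenase, had the highest difference of all members, 0.40 with an SE of 0.19 (limma, Benjamini-Hochberg adjusted p = 0.296). It measured 8.55, 8.50 and 8.05 in the controls against 8.69, 8.59 and 9.01 after siP/CAF. The groups did not overlap, but control array 1 and siP/CAF array 2 lay close together. Without control array 3 the SIRT4 difference was 0.24, below those of HDAC8 (0.34) and SIRT1 (0.30), and without siP/CAF array 3 it was 0.27, below that of HDAC8 (0.29).

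SIRT1, the nuclear deacetylase of p53 and MYOD1-bound complexes, measured 0.14 and SIRT7, a nucleolar sirtuin, 0.11. SIRT5, which removes succinyl and malonyl groups in mitochondria, measured -0.07 on its brightest probe and -0.29 on a dimmer one. Another SIRT5 probe was detected on 2 control arrays and 0 siP/CAF arrays and was not tested. SIRT6, a chromatin deacetylase, measured -0.28. Its SD after siP/CAF was 0.66, the widest among the members, with 4.85 on array 1 against 6.09 and 5.88 on the others. SIRT3, the main mitochondrial deacetylase, was detected on 1 control array on its brighter probe and was not tested.

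Bromodomain readers held the called member. BRD3 (ILMN_1785635, its only named probe) is a BET protein, a family that binds acetylated histones and transcription factors and promotes elongation. It measured 11.59, 11.36 and 11.80 in the controls against 10.64, 10.92 and 10.61 after siP/CAF, or 11.58 ± 0.22 and 10.73 ± 0.17 (SD, n = 3 each). Every siP/CAF array lay below every control array. Raw signals, before normalization, were 3591, 2283 and 3660 in the controls against 1628, 2027 and 1539 after siP/CAF, likewise without overlap, so the probe was far above background in both groups. The difference on the log2 scale was -0.85, with an SE of 0.17 and a 95% interval from -1.24 to -0.47 (limma, Benjamini-Hochberg adjusted p = 0.0237). The call was lost when control array 1 or one of siP/CAF arrays 1 and 3 was left out (limma, Benjamini-Hochberg adjusted p = 0.0912, 0.107 and 0.0724), while the difference stayed between -0.97 and -0.75 over the 6 fits that left out 1 array.

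BRD2, the other BET member of the set, did not pass. It measured 11.02, 11.25 and 11.50 in the controls against 11.32, 11.41 and 11.10 after siP/CAF, a difference of 0.02 with an interval from -0.37 to 0.41. Compared within each array, the log2 ratio of the BRD3 to the BRD2 probe was 0.57, 0.11 and 0.29 in the controls against -0.68, -0.49 and -0.49 after siP/CAF. The change of this ratio was -0.87, with no overlap between the groups, and a two-sided exact permutation test over the arrays gave p = 0.10, the smallest that 3 against 3 allows. This pair was chosen after its values were seen, so the test describes it and supports no more.

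The remaining bromodomain members did not pass. BRD7, a subunit of the PBAF remodelling complex, had the highest difference, 0.16, and its dimmer probe measured 0.12. Its brightest probe read 10.98, 10.92 and 11.38 in the controls against 11.31, 11.39 and 11.07 after siP/CAF, with overlapping groups. BRD9, of the non-canonical BAF complex, measured -0.08. BRPF1 and BRPF3, the scaffolds that join MYST enzymes to chromatin, measured -0.20 and -0.34, and a dimmer BRPF1 probe -0.25. For BRPF1 and BRPF3 control array 3 was the highest of the 6 arrays, and the siP/CAF arrays lay close together (SD of 0.10 and 0.09). BRD8, a NuA4 subunit, was detected on no array.

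**Figure D2:**
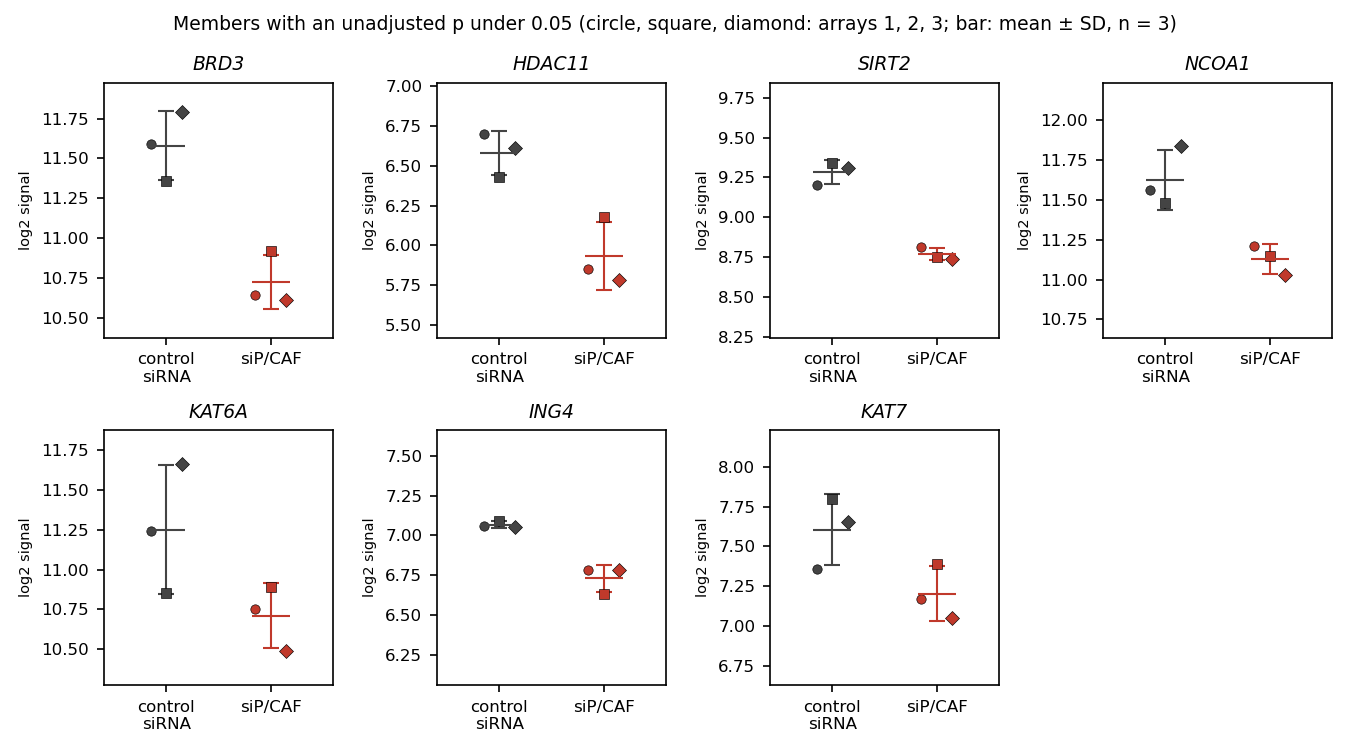
Normalized log2 signal (vertical axes, a separate range for each gene) on each array for the 7 members with an unadjusted p under 0.05. Points are single arrays and bars are mean ± SD over 3 arrays. Groups are separate for BRD3, HDAC11, SIRT2, NCOA1 and ING4 and overlap for KAT6A and KAT7.

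In the ING family 4 of 5 members lay below 0 and none passed, and limma gave 1 of them an unadjusted p under 0.05. ING4 (probe ILMN_1809141), a subunit of the KAT7 complex, measured 7.06, 7.09 and 7.05 in the controls against 6.79, 6.63 and 6.78 after siP/CAF. The controls were nearly identical and lay above all siP/CAF arrays, and the difference was -0.34 with an SE of 0.14 (limma, Benjamini-Hochberg adjusted p = 0.230). ING3, of the NuA4 complex, gave probes of opposite sign. Its brightest probe measured 9.33, 9.36 and 9.53 in the controls against 9.58, 9.43 and 9.51 after siP/CAF, a difference of 0.10. A dimmer ING3 probe measured 7.79, 7.59 and 7.39 in the controls against 7.29, 7.07 and 7.27 after siP/CAF, a difference of -0.38 (limma, Benjamini-Hochberg adjusted p = 0.243). Which transcripts these probes read was not determined, so ING3 has no settled direction. ING1 and ING2, subunits of SIN3 deacetylase complexes, measured -0.12 and -0.13, and ING5, shared by the MYST complexes, -0.10. In all, 12 members had several tested probes, and in 4 of them (KAT5, ING1, ING3 and ING5) the signs differed.

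Of the YEATS-domain readers, YEATS4 (GAS41), which serves the NuA4 and SRCAP complexes, measured 11.21, 10.99 and 10.77 in the controls against 10.73, 10.80 and 10.85 after siP/CAF. Its difference was -0.20, with control array 3 inside the range of the siP/CAF arrays. MLLT3 (AF9), a reader in elongation complexes, measured 5.05, 5.76 and 5.88 in the controls against 5.13, 5.49 and 5.55 after siP/CAF, a difference of -0.17. It was detected on 2 arrays of each group, and its paralogue MLLT1 (ENL) on none.

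Enzymes left out of the set included called genes. KAT2B fell by 2.77 and HDAC4, a class IIa deacetylase that represses MEF2 factors, fell by 1.14 (limma, Benjamini-Hochberg adjusted p = 1.91e-04 and 0.00607). HDAC9, another class IIa deacetylase, measured 0.79 without overlap between the groups, short of the threshold (limma, Benjamini-Hochberg adjusted p = 0.0643), and 0.18 on a dimmer probe. The brighter HDAC9 probe is also dim, with raw signals of 110, 95 and 120 in the controls against 142, 174 and 123 after siP/CAF. KAT2A measured 0.24, EP300 -0.40 and CREBBP -0.39, and a dimmer CREBBP probe fell by 0.91 (limma, Benjamini-Hochberg adjusted p = 0.0259).

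Of 62 tested subunits of the complexes in which the members work 1 was called (1.61%, against 5.37% of all genes), and it was lower after siP/CAF. Among 17 tested subunits of the SIN3 and NuRD deacetylase complexes, the 1 called was MTA1, a NuRD subunit, which was lower after siP/CAF. It measured 10.48, 10.19 and 10.39 in the controls against 9.55, 9.50 and 9.27 after siP/CAF, well apart. The difference was -0.91 with an SE of 0.16 (limma, Benjamini-Hochberg adjusted p = 0.0131), and the call was lost when control array 1 was left out (limma, Benjamini-Hochberg adjusted p = 0.0632). RBBP4, a histone-binding subunit shared by both complexes, measured -0.47 on its brightest probe and 0.00 on its 2 dimmer probes. The other complex lists held no called gene in limma. At an unadjusted p under 0.05, which 20.6% of all genes reached, there were 3 of 13 NuA4 subunits, 0 of 13 MYST scaffold, MSL and NSL subunits, 2 of 11 CoREST, NCoR and MiDAC subunits and 1 of 8 elongation partners of MLLT1 and MLLT3. Their smallest p-values belonged to RUVBL2 (0.46), an ATPase, and MEAF6 (0.35) in NuA4, where the third was EP400 (-0.42), a remodelling ATPase, MSL1 (-0.36) and JADE2 (-0.40) among the scaffolds, RCOR2 (-0.62) and TBL1X (-0.38) among the corepressors, and the elongation factor ELL2 (0.55) and the kinase CDK9 (0.17).

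Of 10 tested enzymes of acetyl-CoA and NAD metabolism 3 were called (30.0%, against 5.37% of all genes). This share rests on few genes. The list was also chosen with earlier results of these data known, so the share supports no conclusion about these enzymes. Of these calls, 2 were each lost in 3 of the 6 fits that left out 1 array. NMNAT2, which makes NAD+ from nicotinamide mononucleotide in the cytosol and is known for its role in axons, rose by 1.77 on the log2 scale (SE 0.22; limma, Benjamini-Hochberg adjusted p = 0.00240). It measured 4.94, 5.21 and 5.83 in the controls against 7.11, 7.06 and 7.13 after siP/CAF. All siP/CAF arrays lay together above the controls, of which 2 were detected, so the size of the rise depends on the background correction, and it was 0.90 without it. Both other NMNAT2 probes were detected on no array.

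ACSS1, the mitochondrial enzyme that makes acetyl-CoA from acetate, fell by 0.89. It measured 7.32, 7.60 and 7.68 in the controls against 6.68, 6.75 and 6.51 after siP/CAF (limma, Benjamini-Hochberg adjusted p = 0.0157). NADK, the kinase that turns NAD+ into NADP+, fell by 0.88, from 8.34, 7.85 and 8.15 in the controls to 7.25, 7.23 and 7.24 after siP/CAF (limma, Benjamini-Hochberg adjusted p = 0.0177). Neither gene's groups overlapped. Leaving out control array 2 or one of siP/CAF arrays 1 and 3 ended the call of ACSS1, with adjusted p-values of up to 0.0686 in limma. Leaving out control array 1 or one of siP/CAF arrays 1 and 2 ended that of NADK, with adjusted p-values of up to 0.0776 in limma. ACLY, which makes the cytosolic and nuclear acetyl-CoA that histone acetyltransferases use, measured 0.11, ACSS2, its counterpart fed by acetate, 0.08, and NAMPT, the rate-limiting enzyme of NAD+ salvage, 0.16. These 3 did not pass.

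**Figure D3:**
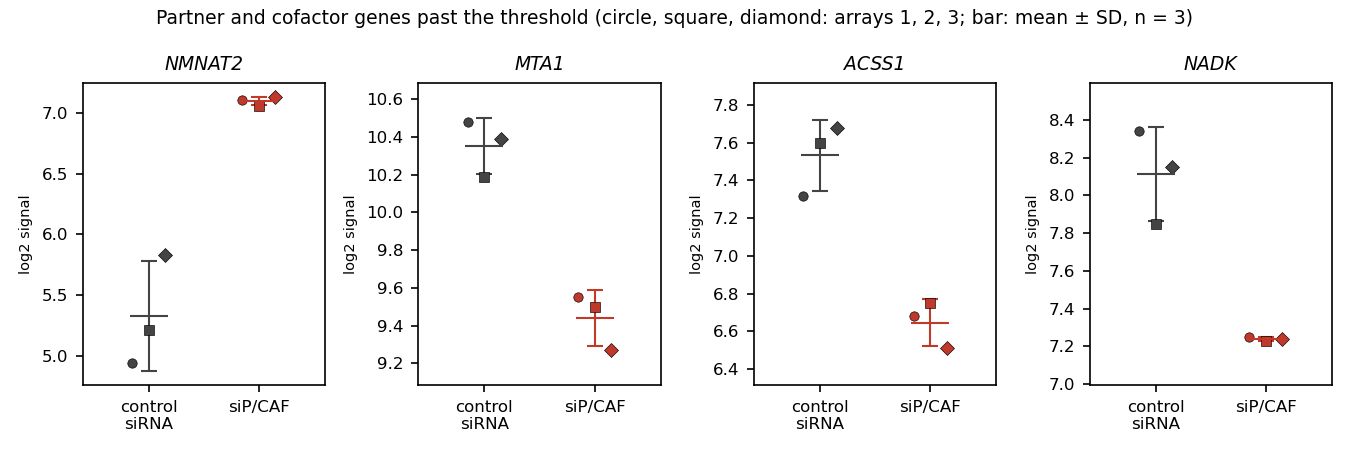
Normalized log2 signal (vertical axes, a separate range for each gene) on each array for the 4 partner and cofactor genes past the threshold. Points are single arrays and bars are mean ± SD over 3 arrays. NMNAT2 is higher on all siP/CAF arrays, and MTA1, ACSS1 and NADK are lower on all of them.

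Which members passed varied with the processing. BRD3 passed in 13 of 18 alternatives, SIRT2 in 5 and HDAC11 in 2, and the other 29 tested members in none. SIRT2 passed without background correction, with an offset of 50, without a filter on dim probes, in the series matrix values and with array weights (limma, Benjamini-Hochberg adjusted p between 0.0277 and 0.0461). HDAC11 passed among probes detected on all arrays and with array weights (limma, Benjamini-Hochberg adjusted p = 0.0490 and 0.0177). All 7 members at an unadjusted p under 0.05 stayed below 0 in each of these alternatives.

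**Figure D4:**
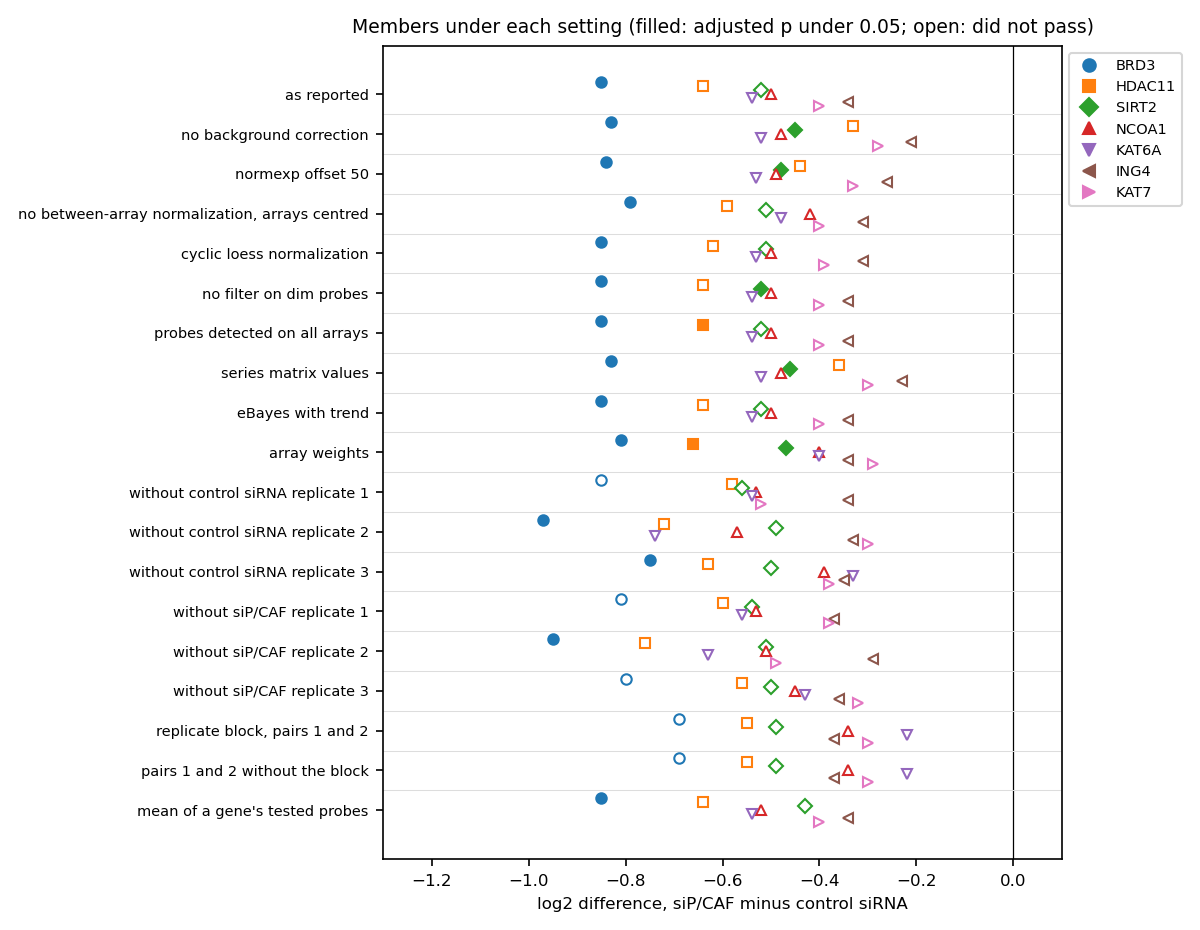
Log2 difference between siP/CAF and control siRNA (horizontal axis) of the 7 members with an unadjusted p under 0.05, as reported and under 18 alternative settings (vertical axis). Filled symbols mark an adjusted p under 0.05. BRD3 lies between -0.97 and -0.69 throughout, and all symbols lie below 0.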

How the data were processed

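For each probe and array the authors deposited a bead signal that the file headers call non-normalized, a linear intensity. Beside it the deposited table holds a score headed as a p-value; it rises with the signal and was read, from the values, as 1 minus the detection p. The deposited series matrix holds log2 values with unstated scale and centring, and each column's median was 0. Its columns were set against the same arrays' log signals, centred on each probe's median, for probes with a raw signal above 150 on every array. There they correlated at 0.933 to 0.970 with slopes of 0.850 to 1.07. Dimmer probes were not compared in this way. The normalization of the series matrix and the software are not stated in the sources used here.

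Signals were corrected by normexp with detection p-values, given an offset of 16, quantile normalized and log2 transformed (nec in limma 3.58.1, R 4.3.3). Tested probes, 21232 of 47323, were those detected (p under 0.05) on 3 or more of the 6 arrays. The platform annotation gave 30113 probes 1 gene symbol, 8 several and 17202 none here, and the last 2 kinds were not named. Each gene took the values of its brightest tested probe, and levels in the text are log2 values. Levels of different genes were not compared, except in the ratio of the BRD3 to the BRD2 probe within each array. Groups were compared by limma (lmFit, eBayes) without a block, two-sided, with Benjamini-Hochberg adjustment over all tested probes and a threshold of 0.05. Error values are SD over 3 arrays, and differences are siP/CAF minus control siRNA.

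Members and lists were chosen with earlier results of these data known, so they got no set test. Values per array are given for members with an unadjusted p under 0.05 and for the highest and lowest difference of each role group; from the other lists, called genes and the 2 with the smallest p are named, and other names were chosen after their values were seen. Arrays left out were dropped after normalization. The test was checked on simulated data. No 2 arrays were identical (correlations within groups 0.981 to 0.994), and the number of arrays limits the precision. The labels number arrays 1 and 2 in both groups, but give the last siP/CAF array no number, and it is called siP/CAF array 3 here only as a name. They do not say what arrays of the same number share. Deviations of same-numbered arrays correlated at -0.147 and -0.405. The numbers were therefore not taken as pairs.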

Additional observations from a re-analysis of the deposited data

How the results depend on the processing

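Of 18 alternatives, the count of called members (1 as reported) was 2 without background correction, with a normexp offset of 50, without a filter on dim probes, with probes detected on all arrays and with series matrix values, and 3 with array weights. It ranged from 0 to 1 when 1 array was left out. It was 0 with the replicate block on arrays 1 and 2, and also 0 on the same 4 arrays without the block, an alternative chosen after seeing the data (6 and 8 members at an unadjusted p under 0.05 in limma); BRD3 measured -0.69 in both. The count over all genes (634) was 1748 with array weights and 209 to 703 with 1 array left out. Called partner and cofactor genes (4) numbered 7 with array weights, 1 with the replicate block (NMNAT2) and 2 to 4 with 1 array left out. The members' median (-0.09) ranged from -0.14 to -0.03 with 1 array left out. Under at least 1 alternative, 16 members changed sign, none of which was called and whose reported differences were at most 0.28 in size. PECAM1 was no longer called when any array but control array 3 was left out, and LYZ was called in 7 of 17 alternatives, 2 of them among the 6 that left out 1 array, and measured 0.31 without background correction. The causes of these shifts were not tested. The chip as a block was not run, since the files name no chip. Dim probes (HDAC11, KAT6B, NMNAT2, MLLT3, SIRT6, HDAC9, JADE2) are limited by their closeness to background.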
